A study of Mus musculus with 20 samples.

Results

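Cell cycle and DNA replication genes were followed in embryos and visceral yolk sacs of cultured mouse conceptuses exposed to mono-2-ethylhexyl phthalate (MEHP). The set holds 45 genes chosen by symbol and not by a measured value, although earlier results of these data were known when it was chosen. Of these, 23 act at the entry into S phase and in DNA replication (G1/S and replication genes) and 22 act in G2 and mitosis (G2/M genes). All 45 were found among the 20794 genes on the array. A gene is represented by the probe set, a group of short oligonucleotides on the array, with the highest mean over the 20 arrays. Levels are log2 values as normalised by the authors, so a difference of 1 is a doubling. Every member lay above the mean level of the median gene (5.72), with member means from 7.04 to 12.13.

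CD-1 conceptuses were taken from untreated dams on gestational day 8, kept in whole embryo culture for 24 h, and separated into embryo and visceral yolk sac on gestational day 9. The culture held 0.01% DMSO (control) or 100 µg/ml MEHP, the monoester that the body makes from a common plasticiser. In each tissue, 3 samples were controls without a neural tube defect (NTD), 1 was a control whose neural tube was defective, and MEHP gave 3 samples of each outcome. Every group, the controls included, passed through the same culture, and the sources used here do not say whether the MEHP medium also held DMSO. They also do not say whether a sample holds 1 conceptus or several, or from which litters, so p-values measure only the spread between these samples.

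A cell commits to division when D-type cyclins with Cdk4 or Cdk6 phosphorylate the retinoblastoma protein and free E2F factors, which switch on cyclin E, the MCM helicase and the enzymes of nucleotide synthesis. The genes of G2 and mitosis are held back earlier in the cycle by the DREAM complex and later switched on by B-Myb and FoxM1, through a promoter element named CHR. The neural plate and the layers of the yolk sac both grow quickly at the stage when the neural tube closes.

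The promoters of the 2 groups were read first, because the background above ties the first group to E2F and the second to the CHR. Another promoter element, the CCAAT box, was read beside them. A promoter window of 300 bases, 250 before to 50 after the transcription start (RefSeq, GRCm38.p6), was found for 36 of the 45 members, 18 in each group, and gave 38 windows because Ccnd3 and Mcm7 have 2 starts each. The letters searched on both strands were TTTCCCGC, TTTGGCGC, TTTGCCGC and TTTCGCGC for E2F, TTTGAA and TTCGAA for the CHR, and CCAAT for the CCAAT box. E2F letters stood in 8 of 20 G1/S and replication windows, in 1 of 18 G2/M windows (Cdk1), and in 2.26% of all 32851 windows in the table. CHR letters stood in 13 of 18 G2/M windows, in 2 of 20 G1/S and replication windows (Mcm2 and Mcm7), and in 6316 of all windows. A CCAAT box stood in 15 of 18 G2/M windows, 12 of 20 G1/S and replication windows and 37.4% of all windows. Both CHR and CCAAT letters stood in the same 13 G2/M windows, against 7.52% of all windows. Matches of different motifs overlapped 1 time in the member windows. A match describes letters and is no evidence of binding. The 4 windows below are examples. Mcm3 and Mcm6, which encode subunits of the replicative helicase, were among the members with the largest tissue difference. Ccnb2 and Mki67 were called in yolk sacs of MEHP conceptuses with NTD against controls, and Mki67 also in MEHP embryos without NTD. Other members with a window and a larger tissue difference than Mcm6 are not shown. Of these, Cdk6 and Nusap1 held none of the motif letters, Pcna only a CCAAT box, and Cdc25b and Bub1b both CHR and CCAAT letters. Capitals mark the letters of any of the motifs, and positions count from the start site.
Mcm3 (chr1:20820263-20820562, minus strand): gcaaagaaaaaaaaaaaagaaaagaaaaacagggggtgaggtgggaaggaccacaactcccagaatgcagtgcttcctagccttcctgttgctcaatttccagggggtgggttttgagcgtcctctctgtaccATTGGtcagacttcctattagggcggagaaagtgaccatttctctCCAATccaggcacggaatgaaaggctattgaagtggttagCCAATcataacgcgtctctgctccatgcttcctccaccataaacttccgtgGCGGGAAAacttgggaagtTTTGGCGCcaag
Mcm6 (chr1:128359656-128359955, minus strand): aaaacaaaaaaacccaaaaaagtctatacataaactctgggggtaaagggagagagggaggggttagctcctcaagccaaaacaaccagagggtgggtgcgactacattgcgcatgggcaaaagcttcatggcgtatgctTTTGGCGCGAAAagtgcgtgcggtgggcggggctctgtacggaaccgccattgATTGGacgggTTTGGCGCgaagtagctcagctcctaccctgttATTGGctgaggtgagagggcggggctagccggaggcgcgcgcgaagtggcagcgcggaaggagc
Ccnb2 (chr9:70421505-70421804, minus strand): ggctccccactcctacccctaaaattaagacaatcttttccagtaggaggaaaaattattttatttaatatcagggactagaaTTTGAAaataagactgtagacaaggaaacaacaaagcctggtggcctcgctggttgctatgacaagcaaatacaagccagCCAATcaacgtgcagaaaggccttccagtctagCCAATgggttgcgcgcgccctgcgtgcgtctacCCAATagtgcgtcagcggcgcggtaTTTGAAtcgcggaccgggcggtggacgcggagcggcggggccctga
Mki67 (chr7:135716330-135716629, minus strand): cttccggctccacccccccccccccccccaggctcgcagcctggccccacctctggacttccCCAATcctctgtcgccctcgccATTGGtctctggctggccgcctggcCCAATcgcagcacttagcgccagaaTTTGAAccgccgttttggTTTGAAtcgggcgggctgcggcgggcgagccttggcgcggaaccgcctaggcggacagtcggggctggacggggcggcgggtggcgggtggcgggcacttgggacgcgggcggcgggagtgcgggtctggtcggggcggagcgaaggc
In Mcm3 the E2F letters lie after the start, at 20 and 39, and 3 CCAAT boxes lie before it, at -117, -72 and -32. Mcm6 has E2F letters at -110, -106 and -47, of which the -110 and -106 copies overlap, and CCAAT boxes at -57 and -14. Ccnb2 has 3 CCAAT boxes at -87, -54 and -21 and CHR letters at -167 and 5. Mki67 has CCAAT boxes at -188, -166 and -141 and CHR letters at -116 and -98.

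The tissue labels were borne out by marker genes. In controls all 14 neuron, 7 neural progenitor and 7 cardiac markers were higher in embryo, and all 12 visceral endoderm markers were higher in yolk sac. Groups follow the authors' comparison tables, because the sample headings of another deposited table would move 13 of the 20 arrays to another group. Those headings would place 8 arrays in the tissue opposite to their marker genes. The arrays of a tissue are listed in the order control, MEHP without NTD, MEHP with NTD, so position in the table cannot be told apart from exposure or NTD. Some measures moved with the groups. The mean of nonspecific control probe sets was 3.65 to 3.80 in MEHP embryos against 3.91 to 4.05 in control embryos, and 3.70 to 3.83 against 3.87 to 4.08 in yolk sacs. The visceral endoderm marker median reached 6.44 in embryo control 2 and 7.05 in embryo MEHP 3, against 4.86 to 5.995 in the other embryos, and the 3' to 5' differences of Gapdh and Actb were high in embryo control 3, embryo MEHP NTD 1 and yolk sac control 2. Their part in the results was not tested beyond the fits that left these arrays out or took the nonspecific level as a covariate, given where they change a count.

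Between control tissues most members were higher in the embryo. Of the 45, 32 were higher in control embryos, 2 were higher in control yolk sacs and 11 did not pass the test (limma, adjusted p under 0.05, 3 arrays each). The background was 51.3% of all genes called, 28.4% higher and 22.8% lower in embryo. The called share of the members, 75.6%, was near the 74.6% of the genes above the median level, so the number of calls was not particular to them. Their direction was one-sided in a way that those genes were not, with 71.1% of members higher in embryo against 40.7%, and 4.44% lower against 33.9%. The median difference was 0.52 for the G1/S and replication genes and 0.50 for the G2/M genes, against 0.03 for all genes. Each array measured a whole tissue, so fewer dividing cells and less RNA per cell cannot be told apart.

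**Figure D1:**
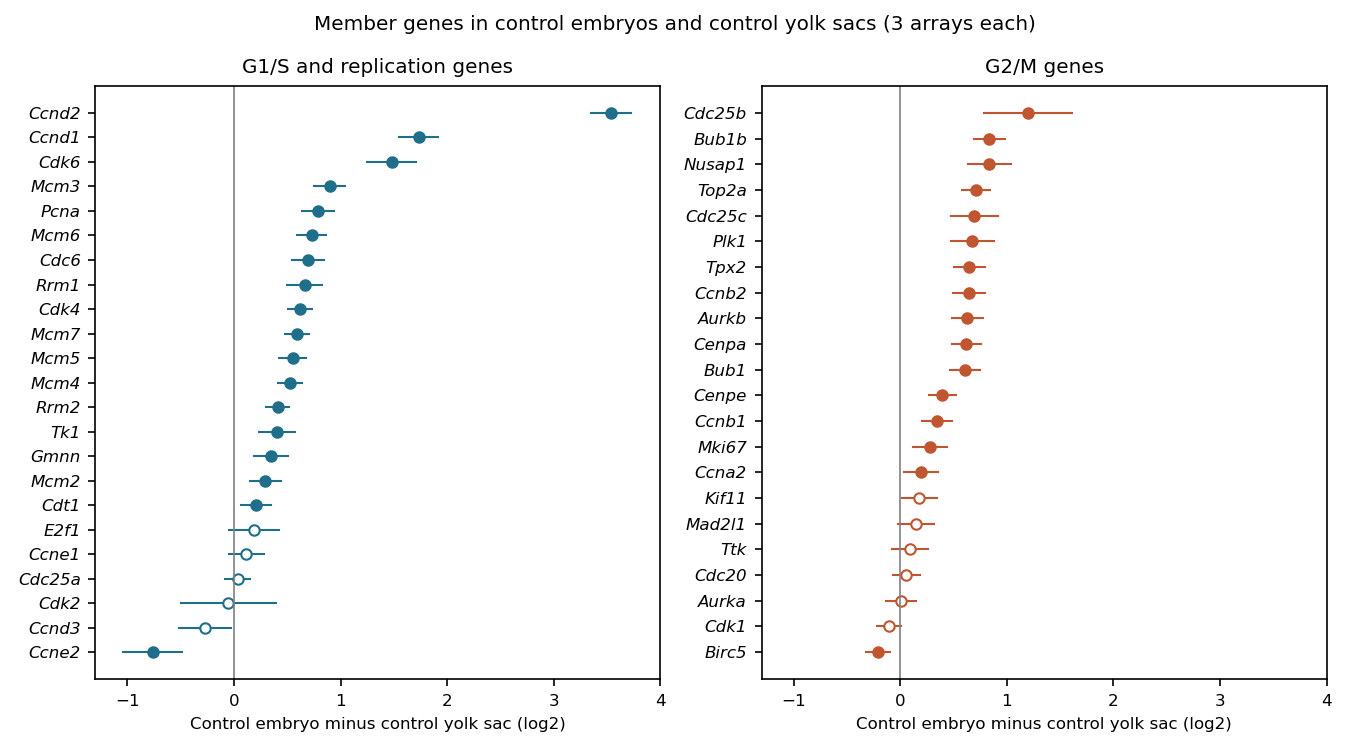
Log2 difference of control embryo minus control yolk sac (3 arrays each) for the 23 G1/S and replication genes and the 22 G2/M genes, with 95% intervals from limma. Filled points passed an adjusted p of 0.05 and open points did not; Ccnd2, Ccnd1 and Cdk6 lie farthest to the right, and Ccne2 and Birc5 are the called members on the left.

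Of the D-type cyclins, which drive entry into the cycle, Ccnd2 and Ccnd1 had the largest differences of the 45 members, and Ccnd3 did not pass. Ccnd2 read 12.09, 12.01 and 12.04 in control embryos and 8.51, 8.51 and 8.51 in control yolk sacs. The 3 embryo arrays stood far above the 3 yolk sac arrays, and the difference was 3.54 ± 0.09 (SE; 11.6-fold; adjusted p = 3.14e-15). All 7 Ccnd2 probe sets gave a difference of the same sign, from 3.38 to 4.18. Ccnd1 read 10.81, 10.66 and 10.74 in control embryos and 8.94, 9.03 and 9.03 in control yolk sacs (1.73 ± 0.09, 3.32-fold, adjusted p = 1.4e-11). Ccnd3 leaned the other way, at 9.83, 9.73 and 9.62 in embryo and 10.06, 9.97 and 9.98 in yolk sac. Its 3 embryo arrays were all below the 3 yolk sac arrays, but the difference did not pass (-0.28 ± 0.12, 95% interval -0.52 to -0.03, adjusted p = 0.057). Among the kinases that pair with these cyclins, Cdk6 read 8.38, 8.27 and 8.32 in embryo and 6.66, 6.75 and 7.12 in yolk sac (1.48 ± 0.11, 2.79-fold, adjusted p = 2.32e-09). Cdk4 averaged 11.36 and 10.75 (0.61 ± 0.05, adjusted p = 2.05e-08).

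**Figure D2:**
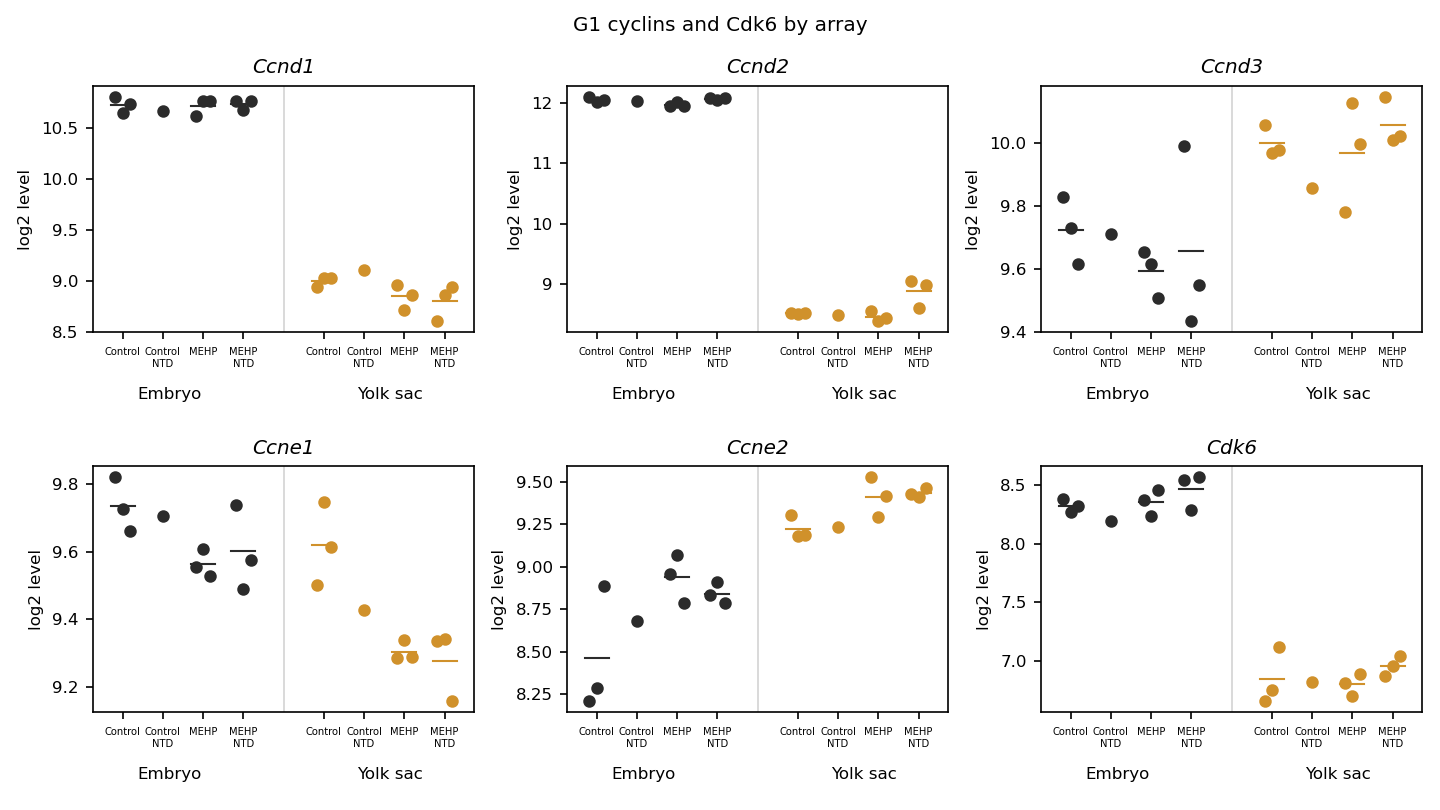
Log2 level of 5 G1 cyclin genes and Cdk6 on each of the 20 arrays, by tissue and group, with a line at the mean of each group of 3; the vertical scales differ between panels. Ccnd1, Ccnd2 and Cdk6 are higher on every embryo array than on any yolk sac array, Ccne2 is lower on every embryo array, and Ccnd3 and Ccne1 overlap.

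The E-type cyclins, which act with Cdk2 at the G1/S transition, did not follow the D-type cyclins. Ccne2 read 8.21, 8.28 and 8.89 in control embryos and 9.31, 9.18 and 9.18 in control yolk sacs, lower in all 3 embryos although the third of them stood well above the other two (-0.76 ± 0.13, adjusted p = 7.28e-05). Ccne1 averaged 9.74 in embryo and 9.62 in yolk sac and did not pass (95% interval -0.05 to 0.28). Cdk2 averaged 8.69 and 8.74, with an interval of -0.50 to 0.40 that is wide because its arrays scattered. Cdc25a, the phosphatase that activates Cdk2, averaged 9.67 and 9.63 (interval -0.08 to 0.15). E2f1, the transcription factor that switches on G1/S genes, averaged 7.24 and 7.05 (interval -0.05 to 0.42).

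Genes that license and carry out replication were higher in embryo throughout. Mcm3, a helicase subunit, read 10.75, 10.68 and 10.66 in control embryos and 9.80, 9.83 and 9.77 in control yolk sacs. The groups did not overlap, and the difference was 0.90 ± 0.07 (1.86-fold, adjusted p = 4.47e-09). The other 5 helicase subunits passed as well. Mcm6 averaged 11.54 in embryo and 10.82 in yolk sac (0.73 ± 0.07), Mcm7 12.43 and 11.84, and Mcm5 11.26 and 10.71. Mcm4 averaged 11.44 and 10.92, and Mcm2 10.38 and 10.09, the smallest of these differences at 0.29 ± 0.07. Cdc6, which loads the helicase, averaged 9.04 and 8.35 (0.69 ± 0.07, adjusted p = 2.22e-07). Its partner Cdt1 averaged 11.33 and 11.13 (0.21 ± 0.07, adjusted p = 0.0146), and Gmnn, which encodes the Cdt1 inhibitor geminin, 10.52 and 10.17. Pcna, the sliding clamp of the DNA polymerases, averaged 12.54 and 11.75 (0.79 ± 0.07, adjusted p = 4.43e-08). For nucleotide supply, the ribonucleotide reductase genes Rrm1 (10.45 and 9.78) and Rrm2 (11.90 and 11.49) and the thymidine kinase gene Tk1 (8.87 and 8.47) were also higher in embryo.

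Among the G2/M genes no difference was as large as those of Ccnd2, Ccnd1 and Cdk6, and the kinase at the centre of mitosis did not pass. Cdc25b, a phosphatase that activates Cdk1, read 8.07, 8.26 and 8.02 in control embryos and 6.78, 7.34 and 6.64 in control yolk sacs. The second yolk sac control was higher than the other two, and still all embryo arrays lay above it (1.197 ± 0.19, adjusted p = 4.6e-05). Cdc25c, of the same family, averaged 7.89 and 7.19 (0.70 ± 0.11, adjusted p = 2e-05). Cdk1 itself averaged 11.15 in embryo and 11.25 in yolk sac, slightly lower on every embryo control without passing (95% interval -0.21 to 0.01). Its cyclins Ccnb1 (11.40 and 11.06), Ccnb2 (10.08 and 9.44) and Ccna2 (10.51 and 10.32) were higher in embryo.

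The spindle and checkpoint genes were split. Bub1b, a spindle checkpoint kinase, averaged 9.93 in embryo and 9.10 in yolk sac (0.84 ± 0.07, adjusted p = 1.52e-08), and its relative Bub1 averaged 10.91 and 10.30. Nusap1, a spindle microtubule protein, averaged 9.67 and 8.84 (0.83 ± 0.10, adjusted p = 7.93e-07), and Tpx2, which activates Aurora A on the spindle, 9.61 and 8.96. Top2a, the topoisomerase that untangles sister chromatids, read 11.17 on each of the 3 control embryos and 10.46, 10.47 and 10.45 in control yolk sacs (0.71 ± 0.06, adjusted p = 3.24e-08). Higher in embryo as well were the mitotic kinases Plk1 (9.57 and 8.90) and Aurkb (9.30 and 8.67), the centromere genes Cenpa (10.89 and 10.27) and Cenpe (9.56 and 9.16), and the proliferation antigen gene Mki67 (10.70 and 10.42). Birc5, the survivin gene of the chromosomal passenger complex, was lower in embryo (10.89 and 11.10; -0.21 ± 0.05, adjusted p = 0.00303). The members that did not pass were Aurka, which encodes Aurora A (9.11 and 9.10), Ttk, a checkpoint kinase (9.08 and 8.99), Mad2l1, a checkpoint protein (11.02 and 10.88), Cdc20, which activates the anaphase-promoting complex (11.76 and 11.70), and Kif11, a spindle motor (9.54 and 9.36; adjusted p = 0.0597).

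The other probe sets of the members were read beside the brightest. Of 50 other probe sets of the members called here, 45 gave the same sign, 37 also passed and 0 passed in the opposite direction. Over all conditions, 28 members (62.2%) were higher on every embryo array than on any yolk sac array, against 19.7% of all genes and 31.9% of those above the median level. On every embryo array 2 members (4.44%; Ccne2 and Birc5) were lower, against 16.7% and 27.4%, and 15 overlapped. Related genes outside the set were read beside it. Of 43 other replication genes, 35 were higher in embryo and 1 (Orc5) lower, led by Pola1, a DNA polymerase subunit (1.16 ± 0.07), Rfc3, a clamp loader subunit (1.13 ± 0.11), Gins1, a helicase cofactor (1.09 ± 0.06), and Pold1, the catalytic subunit of polymerase delta (0.94 ± 0.10). Of 44 other mitosis genes, 24 were higher and 6 lower. The largest difference there was lower in embryo, in Mybl2, which encodes B-Myb (7.22 and 8.54; -1.31 ± 0.13), followed by Cenpf (0.96 ± 0.07), Aspm (0.88 ± 0.10) and Cenpk (0.87 ± 0.10). The 24 cell cycle inhibitors and pocket proteins showed no common direction, with 9 higher and 9 lower. Cdkn2a, the locus of the inhibitor p16 and of Arf, averaged 3.53 in embryo and 7.56 in yolk sac (adjusted p = 4.39e-14). Its embryo level lay below the mean of the nonspecific probe sets (3.97), so it was at least 12.1-fold lower in embryo, taken against that mean. Cdkn1a, the p21 inhibitor gene, averaged 6.91 and 8.55 (-1.64 ± 0.12). Higher in embryo were Ccng2, an atypical cyclin linked to arrest (1.92 ± 0.16), and the E2F family gene E2f5 (1.32 ± 0.08).

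Whether MEHP changes the cycle genes of embryos that show no defect was asked by setting MEHP embryos without NTD against control embryos. Of the 45 members, 2 rose and 0 fell (limma; 7 had an unadjusted p under 0.05, against 28.8% of all genes). All genes were called at 9.72%, with 3.82% higher and 5.9% lower, and genes above the median level at 7.67%. The members' share was 4.44%, and the difference in share was not tested. Mcm4 read 11.42, 11.40 and 11.50 in controls and 11.68, 11.76 and 11.70 with MEHP. All MEHP arrays lay above all controls, as for 12% of all genes. The rise was 0.27 ± 0.06 (SE, 1.21-fold, adjusted p = 0.0299). The other Mcm4 probe set did not show it (-0.01 ± 0.07), and the brightest carries the suffix x, which marks probes that can match other transcripts. Mki67 read 10.60, 10.87 and 10.63 in controls and 10.95, 11.02 and 10.98 with MEHP. Control 2 came close to the MEHP arrays without reaching them, and the rise was 0.29 ± 0.08 (1.22-fold, adjusted p = 0.0467).

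**Figure D3:**
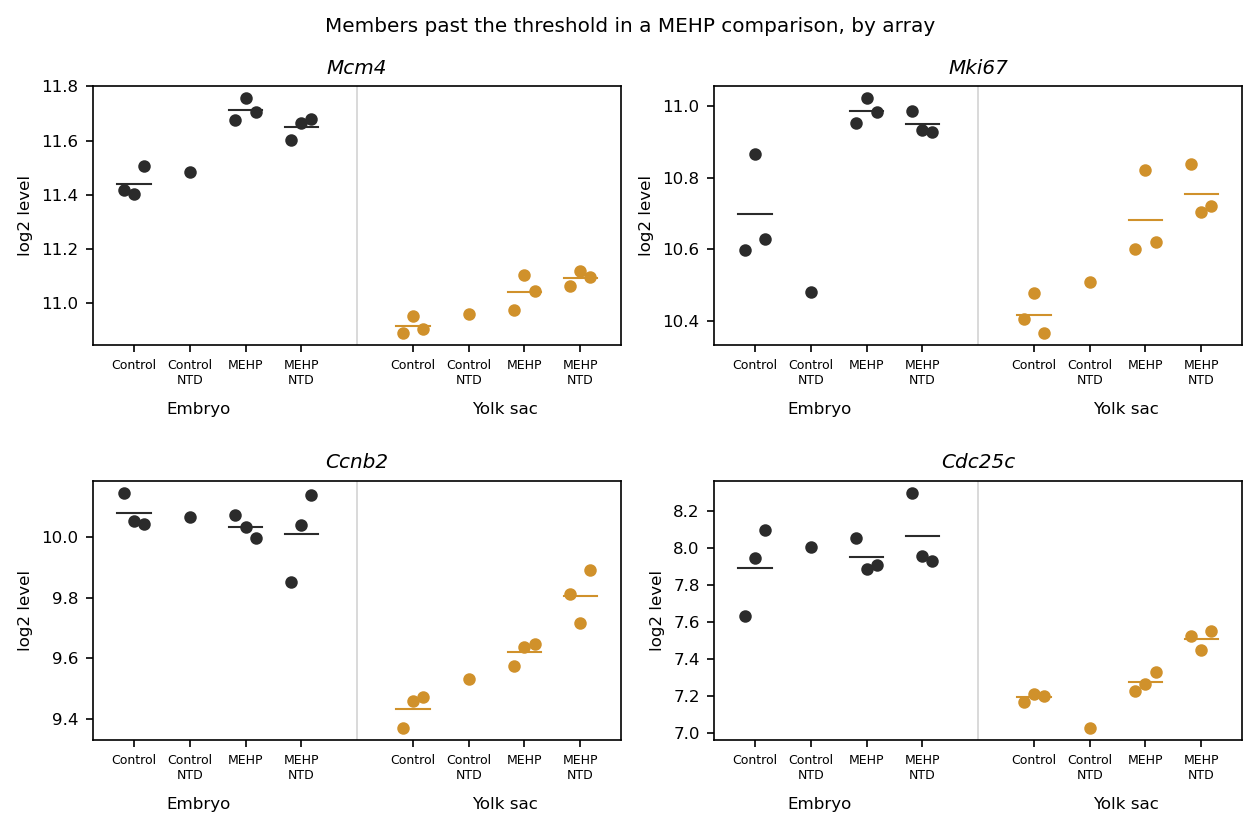
Log2 level of the 4 members that passed the threshold in any comparison of MEHP with control, on each of the 20 arrays, with a line at the mean of each group of 3; the vertical scales differ between panels. Mcm4 and Mki67 are higher in both MEHP groups than in controls in both tissues, and the yolk sac MEHP NTD arrays of Ccnb2 and Cdc25c stand above the yolk sac controls.

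These calls were near the threshold. Leaving out 1 array at a time left 0 to 3 members, with Mcm4 and Mki67 each passing in 1 of 6 such fits (adjusted p up to 0.115 and 0.148). Calls over all genes also varied, from 286 to 2493 in these fits against 2021 with every array. The rises stayed at 0.25 to 0.30 for Mcm4 and 0.24 to 0.37 for Mki67 in these fits, and fell to as little as 0.13 and 0.17 under the other alternatives that kept the groups. The count was 0 without control 1 or any of the 3 MEHP arrays, 1 without control 2 and 3 without control 3. The count was 0 with the nonspecific level as a covariate and 0 without embryo control 2 and embryo MEHP 3, the arrays with high visceral endoderm markers. The nonspecific level did not overlap between MEHP and control embryos, so the covariate fit separates it poorly from exposure and cannot weigh these calls. Of 45 intervals 42 lay within 0.5 of 0, and the medians were -0.03 for the G1/S and replication genes and 0.03 for the G2/M genes, against -0.05 for all genes. Ccne2 had the largest value that did not pass, at 8.21, 8.28 and 8.89 in controls and 8.96, 9.07 and 8.79 with MEHP. Control 3 fell among the MEHP arrays (0.48 ± 0.16, 95% interval 0.13 to 0.82, adjusted p = 0.0762). E2f1 had the lowest value, at 7.41, 7.28 and 7.02 in controls and 6.94, 6.89 and 6.86 with MEHP (-0.34 ± 0.12, adjusted p = 0.0914). Its groups did not overlap, and 23.2% of all genes likewise had every MEHP array below every control.

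Related genes gave a few calls. Among the inhibitors and pocket proteins, 3 of 24 rose and 1 fell. Btg1, an antiproliferative gene, rose by 0.32 ± 0.07 (adjusted p = 0.022), the stress gene Gadd45a by 0.34 ± 0.09 (adjusted p = 0.044) and the retinoblastoma gene Rb1 by 0.26 ± 0.07 (adjusted p = 0.0456). E2f4, a repressive E2F, was dim at 5.13 and fell by 0.31 (SE 0.08; adjusted p = 0.0439). None of the 44 other mitosis genes passed, with 4 at an unadjusted p under 0.05 (limma).

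Whether the cycle genes differ between MEHP embryos with and without NTD was asked by comparing those groups. None of the 45 members passed (limma; 1 had an unadjusted p under 0.05, against 5.66% of all genes), against 0.024% of all genes. The interval of the difference lay within 0.5 of 0 for 44 members, and the medians were 0.005 and -0.01. The exception was Cdk2, which read 8.17, 8.18 and 9.07 in MEHP embryos without NTD and 9.21, 9.04 and 8.92 in those with NTD. The third array without NTD fell inside the range of the NTD arrays, and the difference of 0.58 ± 0.22 had an adjusted p of 0.769 (interval 0.10 to 1.06). Cdk2 was the most scattered member of the embryo, with a residual SD of 0.34 within groups against a median of 0.08 over the members. It also scattered in yolk sacs (residual SD 0.25), at 8.44, 8.32 and 9.04 with MEHP and no NTD and 9.01, 9.09 and 8.87 with NTD. There too the third array without NTD fell inside the range of the NTD arrays. Ccne2 had the largest fall in value (-0.10 ± 0.16).

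Neural and heart markers were read beside this comparison, and 0 of 14 neuron and 0 of 7 cardiac markers passed either (limma; 11 and 6 had an unadjusted p under 0.05, smallest adjusted p 0.0509 and 0.262). Of the 7 neural progenitor markers 0 passed (limma; 1 had an unadjusted p under 0.05), and their median was 8.15 to 8.51 with NTD and 8.26 to 8.49 without. The neuron marker median was 6.11 to 6.13 in MEHP embryos with NTD against 6.28 to 6.88 in the other embryos, and the cardiac marker median was 10.72 to 10.94 against 10.12 to 10.55. Their part in the member values was not tested.

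Against controls, MEHP embryos with NTD gave 0 of 45 members past the threshold (limma; 4 had an unadjusted p under 0.05, against 27.7% of all genes), where 7.45% of all genes passed. The comparison shares its controls with the one above, so its values are not independent of it. Mcm4 averaged 11.65 against 11.44 (0.21 ± 0.06, adjusted p = 0.0723) and Mki67 10.95 against 10.70 (0.25 ± 0.08, adjusted p = 0.0764), with all NTD arrays above all controls for both. Of all genes, 9.51% had every NTD array above every control. Ccne2 had the largest rise in value (0.38 ± 0.16, adjusted p = 0.143), and Pcna the largest fall (-0.18 ± 0.09, adjusted p = 0.206). Between 0 and 3 members passed under the alternatives, and leaving out embryo control 2 or embryo control 3 gave 1. Over all genes, leaving out 1 array gave 270 to 1937 calls, against 1549 with every array. Without embryo control 3, Ccne2 passed (0.60, adjusted p = 0.0104). Among related genes, Pold1 of the other replication genes rose (0.39 ± 0.10, adjusted p = 0.0446), and 1 of 44 other mitosis genes rose, the condensin subunit gene Ncapd2 (0.30 ± 0.07, adjusted p = 0.0334). Among 24 inhibitors and pocket proteins, Gadd45a (0.42 ± 0.09) and Btg1 (0.31 ± 0.07) rose. Cdkn2c, the p18 inhibitor gene, averaged 6.02 against 6.50 (-0.48 ± 0.09, adjusted p = 0.0208) and E2f4 4.81 against 5.13 (-0.33 ± 0.08, adjusted p = 0.0431), and both fell. In this comparison markers did pass (limma). Of these, 7 of 14 neuron and 1 of 7 neural progenitor markers were lower, and 4 of 7 cardiac markers were higher. Their part in the member values was not tested.

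**Figure D4:**
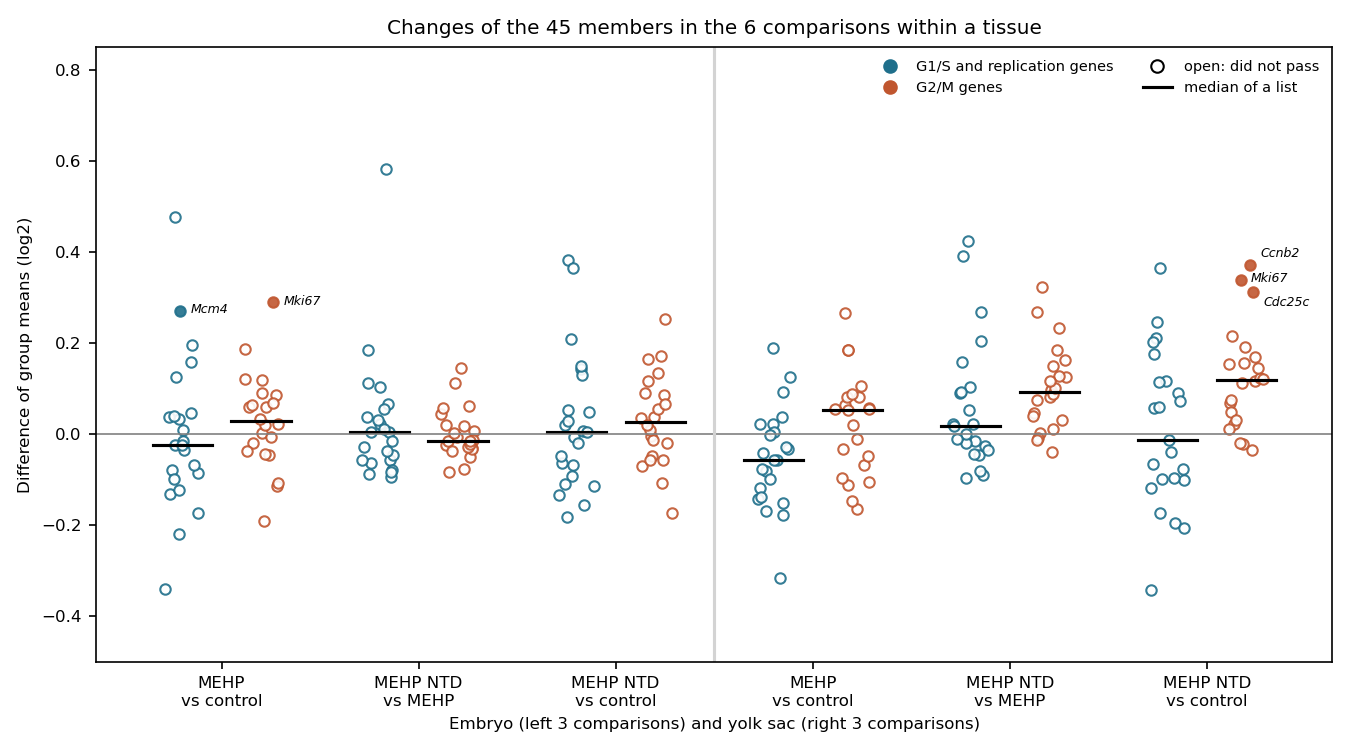
Log2 difference of group means for each of the 45 members in the 6 comparisons within a tissue, 3 arrays a group. Filled, named points passed an adjusted p of 0.05, open points did not, and black lines mark the median of each list; the G2/M medians of the 2 yolk sac comparisons with the NTD group stand at 0.09 and 0.12.

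In yolk sacs without NTD, MEHP gave 0 of 45 members past the threshold (limma; 7 had an unadjusted p under 0.05, against 17.1% of all genes), against 0.313% of all genes. Ccne1 had the largest fall in value. It read 9.50, 9.75 and 9.61 in controls and 9.28, 9.34 and 9.29 with MEHP, and every MEHP array lay below every control (-0.32 ± 0.08, adjusted p = 0.0977). The other Ccne1 probe set gave -0.18 ± 0.08. Mki67 had the largest rise in value, at 10.41, 10.48 and 10.37 in controls and 10.60, 10.82 and 10.62 with MEHP, also without overlap (0.27 ± 0.08, adjusted p = 0.132). Of all genes, 14% had every MEHP array below every control and 9.65% above. The medians leaned apart, at -0.06 for the G1/S and replication genes and 0.05 for the G2/M genes, against -0.02 for all genes. None of the other replication, other mitosis or inhibitor genes passed (limma, with 5 of 43, 1 of 44 and 5 of 24 at an unadjusted p under 0.05). The medians were 0.05 for the other replication genes and 0.01 for the other mitosis genes, so these lists did not lean apart in the same way.

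Yolk sacs of conceptuses with and without NTD after MEHP gave 0 of 45 members past the threshold (limma; 9 had an unadjusted p under 0.05, against 9.63% of all genes), and 0% of all genes passed. Ccnd2 had the largest rise in value. It read 8.55, 8.38 and 8.43 without NTD and 9.05, 8.60 and 8.98 with NTD, with no overlap (0.42 ± 0.11, 95% interval 0.19 to 0.66, adjusted p = 0.236). Of all genes, 8.89% had every NTD array above every array without NTD. All 7 Ccnd2 probe sets were above 0, from 0.15 to 0.48. Rrm2 had the largest fall (-0.10). Among the 22 G2/M genes 19 were above 0, against 54.7% of all genes, with a median of 0.09 against 0.01. The related genes gave 0 calls in each list (limma, with 6 of 43 other replication, 4 of 44 other mitosis and 3 of 24 inhibitor genes at an unadjusted p under 0.05). Of the other mitosis genes 61.4% were above 0 (median 0.03), and of the other replication genes 65.1% (median 0.05). In the same comparison all 12 visceral endoderm markers were below 0 (median -0.13; limma, 6 at an unadjusted p under 0.05). All 7 primitive erythroid markers were above 0 (median 0.23; limma, 0 at an unadjusted p under 0.05). None of either marker list passed, and their part in the member values was not tested.

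The yolk sacs of MEHP conceptuses with NTD differed from control yolk sacs in 3 G2/M genes. Of the 45 members 3 rose and 0 fell (limma; 14 had an unadjusted p under 0.05, against 20.8% of all genes), against 2.38% of all genes called, 1.4% higher and 0.976% lower. Ccnb2, the cyclin B2 gene, read 9.37, 9.46 and 9.47 in controls and 9.81, 9.72 and 9.89 with MEHP and NTD. Every NTD array lay above every control, and the rise was 0.37 ± 0.06 (1.29-fold, adjusted p = 0.0289). Mki67 read 10.41, 10.48 and 10.37 in controls and 10.84, 10.70 and 10.72 (0.34 ± 0.08, 1.26-fold, adjusted p = 0.0487). Cdc25c read 7.17, 7.21 and 7.202 in controls and 7.52, 7.45 and 7.55, again without overlap (0.31 ± 0.06, 1.24-fold, adjusted p = 0.0328). Of 2 other probe sets of the called members, 2 gave the same sign and 1 passed, the other Cdc25c probe set (0.38 ± 0.08). The brightest Cdc25c probe set carries the suffix x. For Ccnb2 the MEHP arrays without NTD lay between the groups, at a mean of 9.62. For Mki67 only their mean of 10.68 lay between, since 1 of them (10.82) stood above 2 of the NTD arrays.

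These yolk sac calls too lay close to the threshold. Leaving out 1 array at a time left 0 to 2 members, with Ccnb2 passing in 1 of 6 fits and Mki67 and Cdc25c in 0 of 6 (adjusted p up to 0.0935, 0.14 and 0.104), and only the fit without MEHP NTD 2 kept any. Calls over all genes fell as well, to between 18 and 192 against 494 with every array, so the loss was not particular to the members. The count was 0 without any 1 of the controls, without MEHP NTD 1 or MEHP NTD 3, and with the nonspecific level as a covariate. That level did not overlap between MEHP and control yolk sacs either, so the covariate fit separates it poorly from exposure. The rises themselves stayed between 0.26 and 0.44 under the alternatives that kept the groups. As a list, 9 of the 22 G2/M genes had every NTD array above every control and 0 had every array below, where 11.7% of all genes were above and 13.9% below. The G2/M median was 0.12, against -0.01 for all genes and 0.03 for those above the median level. The G1/S and replication genes did not lean, with 5 of 23 above, 5 below and a median of -0.01. Ccne1 came nearest to a fall, at 9.34, 9.34 and 9.16 with MEHP and NTD against 9.50, 9.75 and 9.61 (-0.34 ± 0.08, adjusted p = 0.0515). Among the inhibitors Cdkn1a fell by 0.38 (SE 0.08; adjusted p = 0.0475), from a control mean of 8.55 to 8.17. None of the other replication or other mitosis genes passed (limma, with 16 of 43 and 7 of 44 at an unadjusted p under 0.05). Their medians were 0.06 and 0.03. The other mitosis genes, with 25 of 44 above 0, thus stood near the genes above the median level and did not share the G2/M lean. Of the visceral endoderm markers 10 of 12 were below 0 (median -0.04), and of the primitive erythroid markers 6 of 7 were above 0 (median 0.20). None of either marker list passed (limma), and their part in the member values was not tested.

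**Figure D5:**
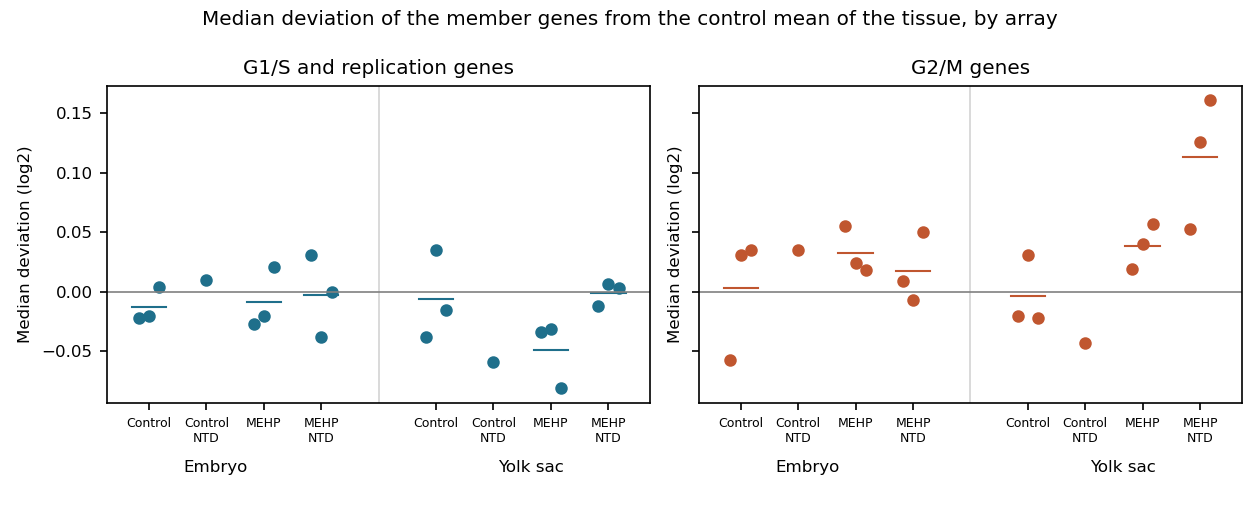
Median over the list of each member's log2 deviation from the control mean of its tissue, for each of the 20 arrays, with a line at the mean of each group of 3. The 3 yolk sac MEHP NTD arrays stand at 0.05, 0.13 and 0.16 for the G2/M genes, above the yolk sac controls at -0.02 to 0.03, while the G1/S and replication medians all lie between -0.08 and 0.04.

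By array, the G2/M median deviation in yolk sacs was 0.05, 0.13 and 0.16 with MEHP and NTD, 0.02, 0.04 and 0.06 with MEHP alone, and -0.02, 0.03 and -0.02 in controls. The first NTD array lay just below the highest MEHP array without NTD, and the other two stood above all. In embryos the same median stayed between -0.06 and 0.06 in every group, and the groups overlapped.

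Whether the tissues responded differently was tested as the difference of the changes. For the MEHP change without NTD, 0 of 45 members passed (limma; 2 had an unadjusted p under 0.05, against 13.1% of all genes), against 0.0769% of all genes. Cdc6 had the highest value, with MEHP minus control at 0.16 in embryos and -0.18 in yolk sacs (0.34 ± 0.10, 95% interval 0.12 to 0.55, adjusted p = 0.182). E2f1 had the lowest (-0.28 ± 0.16, adjusted p = 0.464). For the difference between MEHP samples with and without NTD, 0 of 45 passed (limma; 2 had an unadjusted p under 0.05, against 7.64% of all genes), against 0.0144% of all genes, with E2f1 highest (0.23 ± 0.16) and Cdc25b lowest (-0.35 ± 0.28). For Ccnb2 the 2 differences were -0.23 ± 0.10 (adjusted p = 0.344) and -0.21 ± 0.10 (adjusted p = 0.66). The change from control to MEHP with NTD was also compared between tissues, a test added after seeing the data, and 0 of 45 members passed (limma; 5 had an unadjusted p under 0.05, against 13.7% of all genes), against 0.0962% of all genes. Ccnb2 had the lowest value there (-0.44 ± 0.10, 95% interval -0.65 to -0.23, adjusted p = 0.0969).

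The control array with NTD, 1 in each tissue, has no replicate and was not tested. In the embryo 12 of 45 members lay above and 7 below all 3 controls, against 26.5% and 22.3% of all genes. In the yolk sac 12 lay above and 22 below, against 21.1% and 29.5% of all genes, with a member median of -0.05 relative to the control mean.

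The authors' deposited tables compare exposure over samples with and without NTD together. There, 4 members passed in embryo at an adjusted p under 0.05, against 20.1% of probe sets: Mki67 (0.33), Mcm4 (0.23), Cenpe (0.21) and Ccne2 (0.37), all higher with MEHP. In yolk sac 2 passed in the authors' deposited table, against 4.03% of probe sets: Mki67 (0.28) and Ccne1 (-0.28). By NTD status the authors' deposited tables list 0 of 45 members in either tissue, and 0% of probe sets.

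The members varied little within a group. The median residual SD was 0.077 in embryo and 0.075 in yolk sac over the members, against 0.111 and 0.099 over all genes. All 45 members lay above the median gene level, and their spread was not compared with that of genes of like level. Over all 10 arrays of a tissue 39 members in embryo and 38 in yolk sac ranged over less than 0.5. Cdk2 ranged most in embryo (8.17 to 9.21) and Cdc25b in yolk sac (6.40 to 7.46).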

How the data were processed

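RNA of whole embryos and visceral yolk sacs was hybridised to 1-colour arrays. The deposited values are log2 levels that the authors normalised with RMA, per the submitters' processing notes, which also name limma and R 2.15.1; the scanner files are not used here. The authors' deposited tables also give an exposure or NTD ratio (fold), a log2 difference and p-values, used only where they are named. Array medians ran from 4.81 to 4.90, and precision is limited by how many arrays there were.

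Groups came from the authors' comparison tables: of 1022 splits of a tissue's 10 arrays, the one used gave the deposited differences to within 6.4e-15, and every other split missed by 0.576 or more. Symbols were updated by Entrez ID (35403 of 38367 named probe sets matched), and 104 control and 6670 unnamed probe sets were left out. The brightest probe set stood for each of 20794 genes.

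Differences were tested with limma 3.58.1 (R 4.3.3; lmFit and eBayes), two-sided, with Benjamini-Hochberg adjustment over all genes and a threshold of 0.05. Comparisons within a tissue used 4 groups over 10 arrays, and those across tissues 8 groups over 20 arrays. The other probe sets were tested in a fit of all named probe sets. Every member is named with its tissue levels. Members past the threshold were named in each comparison, or else the largest rise and fall, and up to 4 genes of each related list; further genes were named after their values were seen, and 1 gene of the other replication genes is not reported here for the embryo comparisons of MEHP with control. The members and lists were chosen with earlier results of these data known. The fits were tested on simulated data. Normalisation, probe set rule, filter, variance model, arrays in the fit, a nonspecific covariate, left-out arrays and the other headings were tried as alternatives. Promoters were searched with Python 3.11.15.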

Additional observations from a re-analysis of the deposited data

How the results depend on the processing

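The tissue count of 34 members ran from 32 to 36 under the alternatives and without any 1 array, except 2 with the sample headings of the other deposited table. For MEHP embryos without NTD the count of 2 became 0 with quantile normalisation, 1 with cyclic loess, 1 without dim genes, 1 with the compared groups only, 5 with all 20 arrays in 1 fit, 0 with the nonspecific covariate, 4 without arrays of high 3' to 5' difference, 0 without arrays of high endoderm markers (chosen after seeing the data) and 20 with the other headings, and 0 to 3 without 1 array. For MEHP embryos with NTD against controls the 0 became 3 with the mean of probe sets, 2 with trend and robust, 2 with all 20 arrays and 3 without the high 3' to 5' arrays, and 0 to 1 without 1 array. For yolk sacs with NTD against controls the 3 became 5 with the mean of probe sets, 5 with trend and robust, and 0 with the compared groups only, the covariate, no high 3' to 5' array, or the other headings, and 0 to 2 without 1 array. With the other headings the yolk sac NTD count was 20, and the tissue differences of the MEHP change and of the NTD association gave 31 and 36; without 1 array the first of these gave 0 to 1. Under those headings signs turned for Mki67 (-0.28) and Mcm4 (-0.52) in MEHP embryos, Cdk2 by NTD (-0.26), Ccne1 with MEHP in yolk sac (0.22), Ccnd2 by NTD in yolk sac (-3.19), Mki67 in yolk sac with NTD (-0.047), and the tissue differences of Cdc6 (-1.40), E2f1 (-0.022) and Cdc25b (1.64). With the covariate, whose level did not overlap between MEHP and control arrays, Ccne2 in embryos with NTD turned to -0.035. These headings contradict the authors' own comparisons and put 8 of the 20 arrays in the tissue opposite to their marker genes. Values under them therefore mix embryo and yolk sac arrays. The cause of the other changes was not tested. Over all genes, leaving out 1 array gave 286 to 2493 calls against 2021 for MEHP embryos without NTD, 270 to 1937 against 1549 for those with NTD, 1 to 2 against 65 for MEHP yolk sacs without NTD, 18 to 192 against 494 for those with NTD, 0 to 7 against 5 between MEHP embryos by NTD, and 3 to 259 against 16 and 0 to 9 against 3 for the tissue differences of the MEHP change and the NTD association. The other alternatives that kept the groups gave, in the same order, 0 to 4053, 0 to 3074, 0 to 389, 1 to 1218, 0 to 20, 3 to 144 and 0 to 7, with 0 to 30 against 0 between MEHP yolk sacs by NTD and 7939 to 17955 against 10657 between control tissues. No paired analysis was possible because the array columns, once assigned to groups, carry no replicate number of the labels.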
